A study of Mus musculus with 6 samples.

Results

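The colony-stimulating factors are secreted proteins that keep macrophages and granulocytes alive and drive their growth. Here they comprise 9 mouse genes, of which 4 encode ligands (Csf1, Csf2, Csf3 and Il34) and 5 encode receptor chains (Csf1r, Csf2ra, Csf2rb, Csf2rb2 and Csf3r). The genes were taken by name, and every probe set whose annotation names only 1 of them was used, which gave 16 of the 45037 probe sets on the arrays other than controls. A probe set is a group of short probes that report 1 transcript. The 9 genes are part of 18193 genes with a probe set of their own. A further probe set names both Csf2rb and Csf2rb2, so it was not a member.

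Affymetrix arrays for the whole mouse genome were used to measure expression in fibroblasts sorted from the ears of male mice aged 4 months. Cancer-associated fibroblasts (CAF, 3 arrays) came from ears with visible dysplasia of K14-HPV16 mice, which carry genes of human papillomavirus 16 under the keratin 14 promoter. That promoter is active in basal keratinocytes, so the fibroblasts themselves were not the target of the transgene. Normal dermal fibroblasts (NDF, 3 arrays) came from normal ears of age-matched mice of strain FVB/n without the transgene. Both groups were sorted by flow cytometry for the surface receptor PDGFRα from 15 mice per genotype, and the labels call the 3 arrays of each group biological repetitions without saying whether each came from separate mice. The p-values therefore measure the spread between these samples, which may be technical. The question of the series, by its title, is whether fibroblasts in early neoplasia turn on inflammation through NF-κB.

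Csf1 encodes the macrophage growth factor M-CSF, and its receptor, the tyrosine kinase encoded by Csf1r, is carried mainly by monocytes, macrophages and their skin relatives, the Langerhans cells. Il34 encodes the other ligand of that receptor and is made in skin largely by keratinocytes. Csf2 encodes GM-CSF and Csf3 encodes G-CSF, and fibroblasts are known to make both when interleukin 1 or tumour necrosis factor acts on them. The GM-CSF receptor pairs a specific chain (Csf2ra) with a shared signalling chain (Csf2rb) that also serves interleukin 3 and interleukin 5, and the mouse has a near copy of that chain, Csf2rb2, used by interleukin 3. Csf3r encodes the G-CSF receptor of neutrophils.

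Fibroblast markers were bright on all arrays, and markers of several other cell types were higher on the CAF arrays. The sort marker Pdgfra lay between 12.45 and 12.66 (log2) on the CAF arrays and between 12.30 and 12.60 on the NDF arrays, and none of 10 fibroblast markers passed the test by limma (before adjustment 1 higher and 1 lower had a p under 0.05). CAF replicate 3 stood apart, with a correlation of 0.929 with the mean of the other CAF arrays over all probe sets, against 0.965 to 0.988 for the remaining arrays. The ratio of 3′ to 5′ control probes, a measure of RNA integrity, overlapped between the groups, at 1.30 to 1.72 log2 units on CAF arrays and 1.39 to 1.68 on NDF arrays for Actb. In RNA from sorted bulk cells, more cells of a type and more RNA per cell cannot be told apart. The number of arrays limits the precision.

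Of the 9 genes 1 rose in CAF and none fell, in a limma comparison with p-values adjusted over all 18193 genes. That gene was Csf2rb, the shared receptor chain. Over all genes the share called at an adjusted p under 0.05 was 0.489% higher and 0.0275% lower. With each probe set tested on its own, 1 of 16 rose and none fell, where 0.144% of all probe sets were called higher and 0.0178% lower. The values of the CAF arrays all lay above those of the NDF arrays for 5 of the 9 genes (Csf1r, Csf2rb, Csf2rb2, Csf3 and Csf3r) and all below for 0, where 6.78% of all genes lay wholly above and 8.66% wholly below. The same number, 5, lay wholly above without CAF replicate 3, an alternative chosen after seeing the data. Leaving out a CAF array cannot lower such a count, so this is no separate support. At an unadjusted p under 0.05 the 5 genes higher in CAF were Csf2ra, Csf2rb, Csf2rb2, Csf3 and Csf3r, where 897 of all genes were higher by that measure. The median difference between CAF and NDF was 0.77 log2 units over the 9 genes and -0.04 over all genes. Receptors had a median of 2.20 and ligands one of 0.50. The ligand median lies between the values of Il34 and Csf1, and the probe sets of Csf1 disagreed, as given below.

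**Figure D1:**
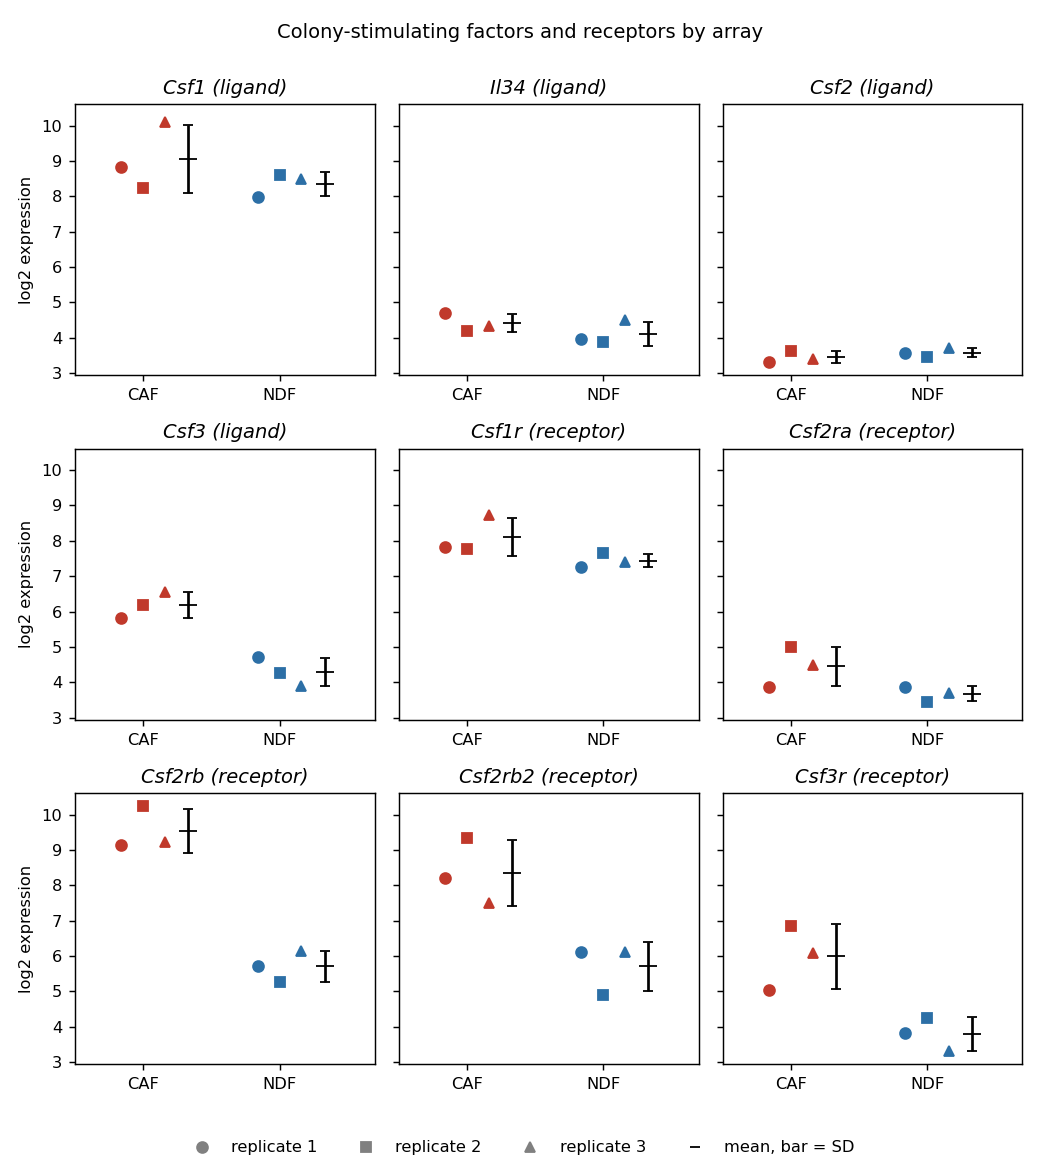
Log2 expression (y axis) of the 9 genes on the 3 CAF and 3 NDF arrays, with 1 probe set per gene, marker shapes for the replicate number, and the mean with its SD. Csf2rb, Csf2rb2, Csf3 and Csf3r lie apart between the groups, while Csf2, Il34 and Csf1 overlap, and heights in different panels belong to different probes and are not comparable.

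Csf3 was the ligand with the widest gap between the groups. Its log2 values were 5.83, 6.19 and 6.57 on the CAF arrays, against 4.71, 4.25 and 3.90 on the NDF arrays. The groups did not overlap, and the lowest CAF array lay 1.12 above the highest NDF array. The means were 6.19 ± 0.37 in CAF and 4.29 ± 0.41 in NDF (SD, n = 3 each). The difference was 1.91 ± 0.29 (SE), with a 95% interval of 1.22 to 2.59 and a ratio of 3.75 on this scale, and its limma adjusted p of 0.0548 missed the threshold. Array quality weights gave Csf3 an adjusted p of 0.0140, and over all alternatives it ranged from 0.0140 to 0.239 while the difference stayed between 1.71 and 2.12. Csf3 has a single probe set among those whose annotation names 1 gene, so its values rest on that measurement alone. On the NDF arrays it was dim, with the lowest value at the 33.8th percentile of all probe sets of its array.

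Csf2, the GM-CSF gene, gave dim values in both groups. They were 3.31, 3.63 and 3.40 on the CAF arrays, against 3.58, 3.45 and 3.71 on the NDF arrays. These values overlapped and stood between the 16.2th and 29.2th percentile of all probe sets of their array. The difference was -0.14 with a 95% interval of -0.57 to 0.30 (adjusted p = 0.917). A change near the floor of the array would not be detectable from such values.

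Il34 was also dim, at 4.70, 4.19 and 4.34 on CAF arrays, against 3.96, 3.87 and 4.51 on NDF arrays. Its groups overlapped, with NDF replicate 3 above 2 of the CAF arrays. CAF minus NDF was 0.30, with -0.29 to 0.89 as its 95% interval (adjusted p = 0.836). Of 11 measured markers of keratinocytes, the known source of Il34 in skin, 2 rose in CAF. The mean of that list was 9.20 to 10.48 on CAF arrays and 7.83 to 8.01 on NDF arrays, and its part in the Il34 values was not tested.

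Csf1 had 4 probe sets, and they differed in how CAF replicate 3 read. The brightest, 1460220_a_at, read 8.84, 8.23 and 10.10 on the CAF arrays, against 7.97, 8.61 and 8.48 on the NDF arrays. CAF replicate 3 was the highest array. The difference was 0.70 (95% interval -0.43 to 1.83, adjusted p = 0.790) with that array and 0.18 without it. On the same array the 3 other probe sets lay at or near the low end of their values. 1425154_a_at read 7.49, 6.49 and 6.13 on CAF arrays, against 6.65, 7.21 and 7.30 on NDF arrays. 1425155_x_at read 7.56, 6.56 and 5.69 on CAF arrays, against 6.40, 7.20 and 7.31 on NDF arrays. 1448914_a_at read 6.90, 6.22 and 6.11 on CAF arrays, against 5.98, 6.59 and 6.58 on NDF arrays. Their differences between the groups were -0.35, -0.37 and 0.03, and CAF and NDF overlapped on all 3. CAF replicate 3 differed from the mean of the other CAF arrays by 1.57 on 1460220_a_at and by -0.86, -1.38 and -0.45 on the others. The mean of the 4 probe sets differed by 0.00 between CAF and NDF (adjusted p = 0.999). What part of the transcript each probe set reads was not used here.

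Csf1r, the receptor of Csf1 and Il34, followed CAF replicate 3 in all 3 of its probe sets. 1419872_at, the brightest, read 7.82, 7.78 and 8.72 on the CAF arrays, against 7.27, 7.65 and 7.40 on the NDF arrays. 1419873_s_at read 6.23, 6.27 and 7.63 on CAF arrays, against 6.14, 6.60 and 6.26 on NDF arrays. 1423593_a_at read 5.40, 5.23 and 7.61 on CAF arrays, against 5.31, 5.31 and 5.38 on NDF arrays. CAF replicate 3 was the highest of all 6 arrays each time, by 0.92, 1.38 and 2.30 above the mean of the other CAF arrays. The mean of CAF replicates 1 and 2 differed from the NDF mean by 0.36, -0.09 and -0.02. At gene level the difference was 0.67 with a 95% interval of -0.03 to 1.37 (adjusted p = 0.588). The limma adjusted p of Csf1r was over 0.3 in every alternative, the lowest being 0.327 with array quality weights.

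**Figure D2:**
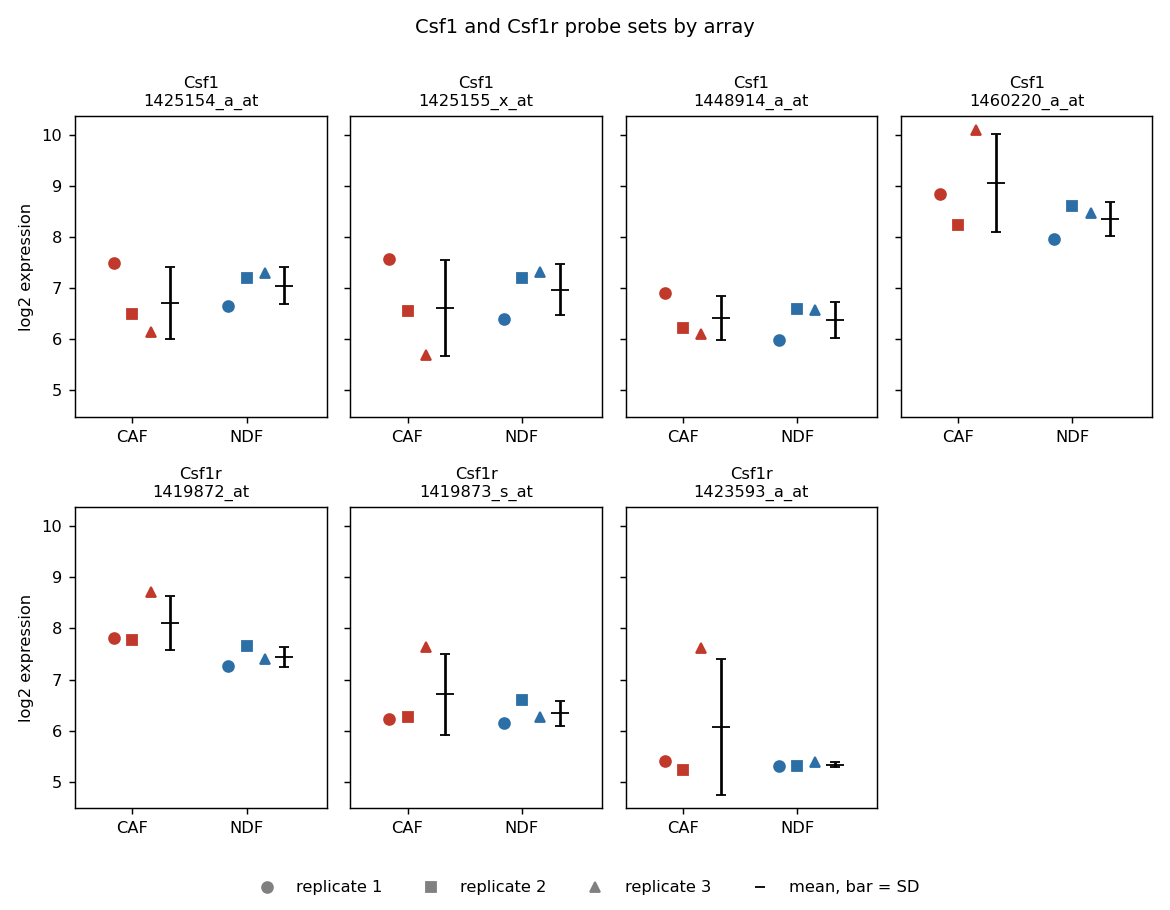
Log2 expression (y axis) of the 4 Csf1 and 3 Csf1r probe sets on each CAF and NDF array, with the mean and its SD. CAF replicate 3 (triangle) is the highest array for 1460220_a_at of Csf1 and for all 3 Csf1r probe sets, and the lowest CAF array for the other Csf1 probe sets.

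Csf2rb, the signalling chain shared by the receptors for GM-CSF, interleukin 3 and interleukin 5, was the gene with the largest difference among the 9. On 1455660_at it read 9.15, 10.25 and 9.22 on the CAF arrays, against 5.71, 5.27 and 6.14 on the NDF arrays. Every CAF array was at least 3.00 above every NDF array. The means were 9.54 ± 0.62 in CAF and 5.71 ± 0.44 in NDF (SD, n = 3 each). It rose by 3.83 ± 0.37 (SE), with a 95% interval of 2.95 to 4.71 and a ratio of 14.2 on this scale (limma adjusted p = 0.0186). Without NDF replicate 1, 2 or 3 the difference was 3.83, 3.61 or 4.05, and the adjusted p was 0.0972, 0.0912 or 0.0732. Without CAF replicate 3 the difference was 3.99 (adjusted p = 0.0195). The other probe set of Csf2rb, 1421326_at, had the same order of arrays in CAF at 7.62, 8.74 and 7.63, against 5.56, 5.15 and 4.90 in NDF. That made 2.79, with 1.93 to 3.65 as its 95% interval, and an adjusted p of 0.0642 over all probe sets.

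Csf2rb2, the neighbouring copy of Csf2rb on chromosome 15, read 8.22, 9.34 and 7.49 on the CAF arrays, against 6.11, 4.91 and 6.11 on the NDF arrays. The genes are 20078 bases apart in the RefSeq annotation. The groups did not overlap, and CAF replicate 2 was the highest array for both genes. The difference was 2.64 with a 95% interval of 1.36 to 3.92 and a ratio of 6.24 (adjusted p = 0.128). Over the alternatives its limma adjusted p ranged from 0.0221 with array quality weights to 0.388 without NDF replicate 2. The sequences of the copies are close, and hybridisation to the wrong copy was not tested. The probe set that names both genes, 1450200_s_at, read 5.54, 5.71 and 6.04 on CAF arrays, against 5.46, 5.03 and 5.38 on NDF arrays. Its difference of 0.47 (95% interval -0.05 to 0.99) was smaller than that of any probe set naming only 1 of the pair, and this probe set was singled out after its values were seen.

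Csf2ra, the chain specific to GM-CSF, was dim on the NDF arrays. On CAF replicate 2, its highest array, 1420703_at reached the 46.9th and 1420704_at the 51.6th percentile of all probe sets. 1420703_at read 3.90, 4.63 and 3.70 on CAF arrays, against 3.08, 3.30 and 3.30 on NDF arrays, so the groups did not overlap. 1420704_at read 3.87, 4.99 and 4.49 on CAF arrays, against 3.87, 3.45 and 3.71 on NDF arrays, and here CAF replicate 1 was level with NDF replicate 1. The differences were 0.85 and 0.77, with 95% intervals of 0.19 to 1.50 and 0.04 to 1.51. Neither passed the test over all probe sets (adjusted p = 0.531 and 0.680).

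Csf3r, the G-CSF receptor, read 5.03, 6.86 and 6.09 on the CAF arrays, against 3.83, 4.25 and 3.31 on the NDF arrays. All CAF arrays lay above all NDF arrays, by at least 0.78. The means were 5.99 ± 0.92 in CAF and 3.80 ± 0.47 in NDF (SD, n = 3 each). The difference of 2.20 had a 95% interval of 1.05 to 3.35 and a ratio of 4.59, and missed the threshold (adjusted p = 0.158). The NDF values were dim, the lowest at the 17.8th percentile of all probe sets of its array, so the ratio rests on signals near the floor. CAF replicate 2 was the highest CAF array for Csf3r, as for Csf2ra, Csf2rb and Csf2rb2.

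**Figure D3:**
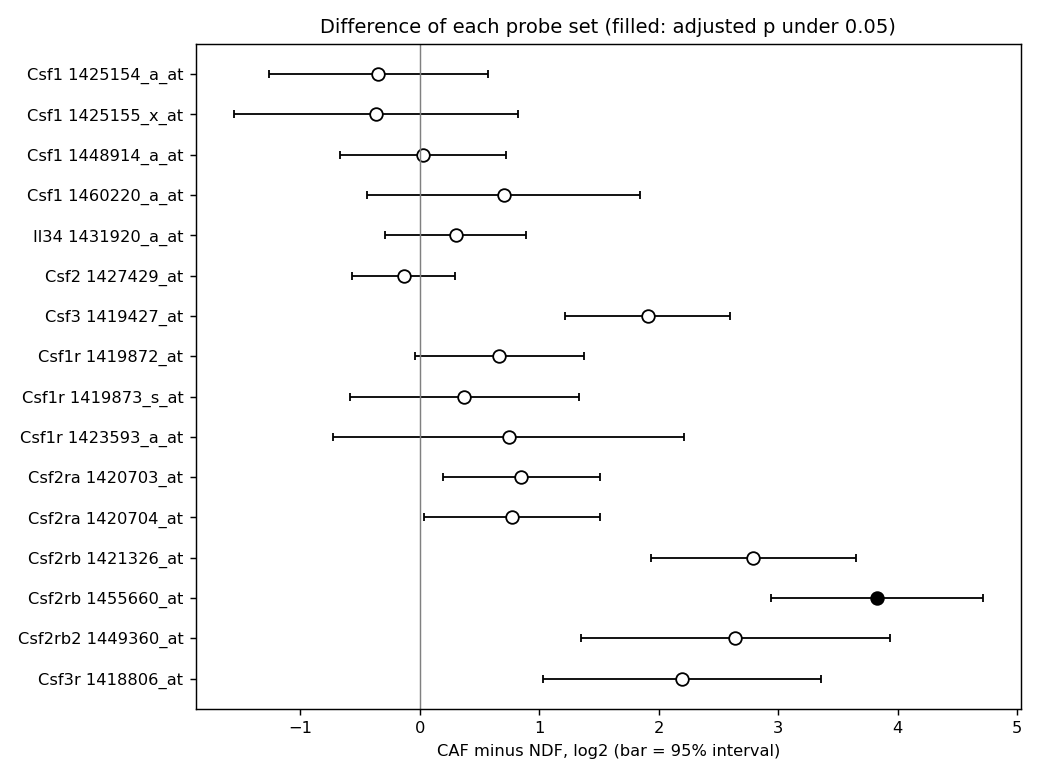
Difference between CAF and NDF (x axis, log2) of the 16 probe sets, with 95% intervals, where a filled point marks an adjusted p under 0.05 over all probe sets. Only 1455660_at of Csf2rb is filled, at 3.83, and the intervals of Csf3, Csf2ra, Csf2rb, Csf2rb2 and Csf3r lie above 0.

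Promoter sequence, which the arrays do not read, was searched for the letters of factors known to act on myeloid and inflammatory genes. PU.1 is a transcription factor that activates many myeloid genes, and the letters GAGGAA were searched on both strands as its core, TTNNGNAA as that of C/EBP, TGANTCA as that of AP-1, and the 10-base NF-κB consensus by its name. The 250 bases before a start site in the RefSeq table were searched for the 5 genes Csf1, Csf2, Csf2ra, Csf2rb2 and Csf3r. The PU.1 core was in the promoters of the 3 receptors among them and in neither ligand's, and 23.3% of 32851 promoters of that length hold it. The NF-κB consensus was in those of Csf1 and Csf3r, where 7.25% of promoters hold it, and the C/EBP core in those of Csf2 and Csf2ra, where 36.8% do. AP-1 letters, held by 6.75% of promoters, were in none of the 5. The promoters of the 3 receptors are shown because they hold the PU.1 letters, and capitals mark every match.
Csf3r (GRCm38.p6, chr4:126024409-126024658, plus strand): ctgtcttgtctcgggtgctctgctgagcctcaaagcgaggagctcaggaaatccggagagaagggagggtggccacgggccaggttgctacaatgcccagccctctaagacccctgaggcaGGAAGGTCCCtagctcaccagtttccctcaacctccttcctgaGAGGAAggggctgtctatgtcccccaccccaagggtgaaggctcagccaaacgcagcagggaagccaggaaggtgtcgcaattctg
Csf2rb2 (GRCm38.p6, chr15:78305722-78305971, minus strand): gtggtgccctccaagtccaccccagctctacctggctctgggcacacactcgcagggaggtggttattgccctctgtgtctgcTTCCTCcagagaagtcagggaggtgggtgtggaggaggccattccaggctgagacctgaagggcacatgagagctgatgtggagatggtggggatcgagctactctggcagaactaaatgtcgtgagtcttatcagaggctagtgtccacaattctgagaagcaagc
Csf2ra (GRCm38.p6, chr19:61228419-61228668, minus strand): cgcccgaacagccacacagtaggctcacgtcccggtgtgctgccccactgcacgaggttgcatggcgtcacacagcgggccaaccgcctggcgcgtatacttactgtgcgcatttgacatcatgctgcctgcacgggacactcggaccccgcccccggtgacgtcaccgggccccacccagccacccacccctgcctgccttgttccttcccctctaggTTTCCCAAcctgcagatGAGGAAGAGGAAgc
In Csf3r the capitals nearest the start, at -86 to -81 counted from the start site, are the PU.1 core and those at -129 to -120 the NF-κB consensus. In Csf2rb2 the PU.1 core lies on the opposite strand at -167 to -162. In Csf2ra it occurs in 2 adjoining copies from -14 to -3, and the C/EBP core ends at -24. A match of letters is a description and shows no binding.

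Some markers of leukocytes were also higher on the CAF arrays. Among 12 measured of 14 listed neutrophil markers 3 rose and none fell, namely the lectin Clec4d, the calcium-binding protein gene S100a8 and the receptor Trem1, at 6.47, 6.04 and 4.14 (adjusted p = 0.00982, 0.0304 and 0.0304). The mean of the list was 6.34, 7.26 and 6.96 on the CAF arrays, against 4.65, 3.92 and 4.25 on the NDF arrays. CAF replicate 2 was highest for this mean, as it was for Csf3r and both Csf2rb genes, and among the CAF arrays 7 of the 12 markers were highest on it and 5 on CAF replicate 3. That order was not particular to neutrophil markers. The endothelial list mean read 6.86, 7.72 and 6.66 on the CAF arrays. CAF replicate 2 was also highest for the dendritic and Langerhans cell list (5.61) and the eosinophil, basophil and mast cell list (4.89). The chemokine receptor Cxcr2 and the gelatinase Mmp9 differed by 3.32 and 2.93 (adjusted p = 0.0821 and 0.0505). Genes of granules made early in the marrow stayed dim, with Mpo at 3.14 to 3.30 in CAF and 3.34 to 3.44 in NDF, and Elane at 2.80 to 3.87 in CAF and 3.19 to 3.53 in NDF. Ngp, Camp and Ltf of the same list were dim as well. They differed by 0.21, 0.07 and -0.12, and CAF and NDF overlapped on each. All CAF arrays lay above all NDF arrays for 7 of the 12 markers, where 6.78% of all genes did.

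Among 13 measured of 14 listed macrophage and monocyte markers 1 rose and none fell, the adaptor gene Tyrobp, at 3.65 (adjusted p = 0.0134). Before adjustment 9 of the 13 had a limma p under 0.05, all higher in CAF. All CAF arrays lay above all NDF arrays for 11 of the 13, where 6.78% of all genes did. The mean of that list was 5.93, 6.01 and 7.26 on the CAF arrays, against 5.18, 4.24 and 4.49 on the NDF arrays. CAF replicate 3 was highest for this mean, as it was for Csf1r. The mean of the T, NK and B cell list was also highest on that array, at 4.30, 4.84 and 5.15 on the CAF arrays. Among the CAF arrays 10 of the 13 markers were highest on replicate 3 and 3 on replicate 2, namely Tyrobp, the allograft inflammatory factor gene Aif1 and the chemokine receptor gene Ccr2. Aif1 read 4.92, 5.35 and 4.46 on CAF arrays, against 4.51, 3.76 and 3.64 on NDF arrays, and Ccr2 read 4.15, 4.91 and 4.06 on CAF arrays, against 3.91, 2.70 and 3.45 on NDF arrays, so both were lowest among CAF on replicate 3. The membrane protein gene Ms4a7 read 5.76, 5.86 and 7.72 on CAF arrays, against 5.37, 4.19 and 4.02 on NDF arrays, and the scavenger receptor gene Cd68 read 6.06, 6.11 and 7.95 on CAF arrays, against 5.60, 5.50 and 5.62 on NDF arrays. The lysozyme gene Lyz2 and the mannose receptor gene Mrc1 differed by 3.52 and 2.58 (adjusted p = 0.151 and 0.279). The part of leukocytes in the receptor values was not tested.

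The neutrophil and macrophage lists had median differences of 2.52 and 1.24, or 2.42 and 1.17 without CAF replicate 3. Among the other marker lists those of keratinocytes and endothelial cells had the largest medians. The median difference was 0.19 for 10 dendritic and Langerhans cell genes, 0.28 for 12 eosinophil, basophil and mast cell genes, 0.13 for 10 lymphocyte genes, 1.58 for 11 keratinocyte genes and 1.59 for 10 endothelial genes, against -0.16 for the 10 fibroblast genes. Without CAF replicate 3 the lymphocyte median turned to -0.02, the dendritic and the eosinophil medians became 0.39 and 0.55, and the fibroblast median became -0.01. Members that rose were Cd3g of the T cell receptor complex, at 2.38 (adjusted p = 0.0461), the wound keratins Krt6a and Krt16, at 5.05 and 4.82 (adjusted p = 0.00998 and 0.0148), and the lymphatic receptor gene Lyve1, at 3.38 (adjusted p = 0.0218).

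**Figure D4:**
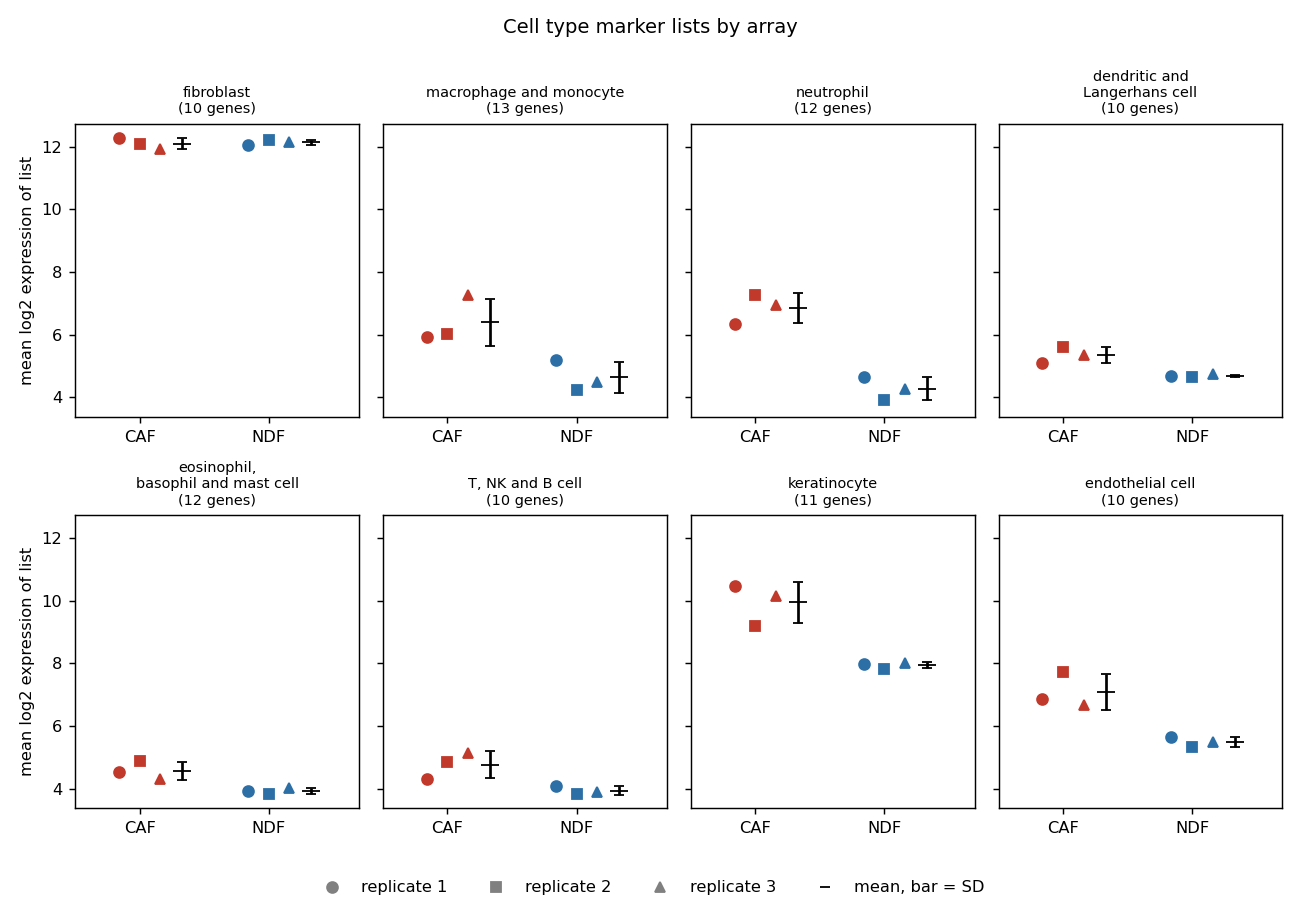
Mean log2 expression (y axis) of 8 marker lists on each CAF and NDF array, with the mean over arrays and its SD. The neutrophil, dendritic, eosinophil and endothelial lists are highest on CAF replicate 2, and the macrophage and T, NK and B cell lists on CAF replicate 3. The keratinocyte list is highest on CAF replicate 1, and the fibroblast list overlaps between the groups.

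Genes that act with the colony-stimulating factors were counted by role. Of 5 measured growth factors of related families none passed by limma, 1 had an unadjusted p under 0.05 (higher in CAF), and their median difference was 0.24, or 0.14 without CAF replicate 3. That 1 was Tslp, an alarm cytokine of epithelia, at 7.13 ± 0.38 on CAF arrays and 5.03 ± 0.90 on NDF arrays (SD, n = 3 each, adjusted p = 0.154). Of 9 related receptors 1 rose, the interleukin 7 receptor gene Il7r, which read 6.66, 8.71 and 8.56 on CAF arrays, against 4.26, 3.09 and 3.15 on NDF arrays. Its difference was 4.48 (adjusted p = 0.0412), with 1.98 on its second probe set. The median of the 9 receptors was -0.02, and -0.06 without CAF replicate 3. Il3ra, the specific chain that works with Csf2rb for interleukin 3, differed by 0.35 (adjusted p = 0.702).

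Of 19 genes of receptor-proximal signalling 2 rose and none fell, with a median of 0.15, or 0.23 without CAF replicate 3. Besides Tyrobp this was Pik3cg, a leukocyte phosphoinositide kinase, at 2.27 (adjusted p = 0.0333), but 0.16 on its second probe set. Stat3, the transcription factor that G-CSF activates, differed by 0.67 (adjusted p = 0.338), and the kinase gene Syk and the adaptor gene Pik3ap1 by 1.48 and 1.55 (adjusted p = 0.119 and 0.317). The other probe sets of Syk differed by 0.92, -0.03 and 0.02, and that of Pik3ap1 by -0.04. None of 13 negative regulators passed by limma, and their median was 0.00, or 0.12 without CAF replicate 3. Before adjustment 3 of them had a p under 0.05, all higher in CAF. Socs3, the feedback inhibitor of G-CSF signalling, read 10.99, 11.33 and 11.01 on CAF arrays, against 10.10, 8.96 and 9.68 on NDF arrays (adjusted p = 0.128). The lipid phosphatase gene Inpp5d differed by 2.00 (adjusted p = 0.0633), with 0.06 for its other probe set.

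None of 10 myeloid transcription factor genes passed by limma, with a median of 0.24. Before adjustment 2 had a p under 0.05, both higher in CAF. Cebpd and Irf8, factors of granulocyte and monocyte development, differed by 1.47 and 0.97 (adjusted p = 0.153 and 0.146), and by 1.14 and 0.27 on their other probe sets. Among 13 early targets of the receptors 1 rose and none fell, with a median of 0.54. It was Egr2, an immediate-early factor, at 2.11 (adjusted p = 0.0280), with 2.26 on its second probe set. The survival kinase gene Pim1 differed by 1.63 (adjusted p = 0.150), with 0.01 for its other probe set, and the cyclin gene Ccnd2 by -1.11 (adjusted p = 0.135). Of 11 genes that induce or help induce colony-stimulating factors 2 rose and none fell, Il6 and Il1b, at 5.77 and 5.56 (adjusted p = 0.000382 and 0.0186), and the median was 0.18, or 0.11 without CAF replicate 3. Il33, an alarm cytokine, differed by 1.53 (adjusted p = 0.0988).

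The genes most like Csf2rb over the 6 arrays, by the root mean square difference of log2 values centred on each gene's mean, were Srgn, Cd14, Selp, Plek and Tyrobp. They were the nearest of 8870 genes, at 0.22, 0.24, 0.36, 0.36 and 0.41 log2 units. Csf2rb2 was the nearest of the 8 others in the set, at 0.69, and Csf2 the farthest, at 2.01. The genes most like Csf3 were Tspan13, Gcnt2, Ier3, Tcim and Rassf5, at 0.20, 0.20, 0.22, 0.26 and 0.26. Among the set Csf3r was nearest to Csf3, at 0.54, and Csf2rb the farthest, at 1.12. All these values share the same 6 arrays. Centring over both groups makes a like difference between CAF and NDF weigh heavily in this distance. The 5 genes nearest Csf2rb differed by 3.64 to 4.05, against 3.83 for Csf2rb, so the list largely restates that difference. The same holds for the 5 nearest Csf3, which differed by 1.55 to 2.15, against 1.91 for Csf3. Candidates needed a mean at or above that of the median gene, 6.05. Cd14, Plek and Tyrobp read below it on every NDF array and passed through their CAF values.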

How the data were processed

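Expression was measured in sorted fibroblasts of 2 groups, CAF and NDF, with 3 arrays each. Per the labels' protocols RNA was amplified once and labelled with biotin, and per the submitters' processing notes GCOS and RMA were used, both with the version not given in the sources used here. What the authors deposited is log2 RMA expression per probe set, so arrays are already quantile normalised and low signals are compressed, which understates differences of dim genes. No scanner files were used, so no probe set was called absent.

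Control probe sets were set aside (64 of 45101). Of the rest 34945 name 1 gene, 932 name several, and 9160 lack an entry in the platform annotation, and 34741 matched RefSeq by gene identifier with 0 symbols updated. The probe set with the highest mean stood for a gene. The groups were set against each other by limma 3.58.1 in R 4.3.3 (lmFit and eBayes, two-sided, no covariate), at gene level over 18193 genes and again over 45037 probe sets, with Benjamini-Hochberg adjusted p-values and a threshold of 0.05. The procedure was tested on simulated data. Promoters are RefSeq, build GRCm38.p6, and those of 5 of the 9 genes were searched, so the other genes are not covered. Plots used matplotlib 3.10.9 (Python 3.11.15).

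The members, gene lists and tests were chosen with earlier results of these data known. All 9 genes are named, and of each list every gene past the threshold and up to 3 others with the smallest p were eligible. The 5 genes nearest in pattern were taken among genes at or above the median level, leaving out clones and predicted genes. Named outside the rule were Ms4a7, Cd68, Aif1, Ccr2, Mpo, Elane, Ngp, Camp, Ltf and 1450200_s_at, chosen after their values were seen. Pdgfra was also outside the rule and was named as the sort marker. Same-numbered CAF and NDF arrays had correlations of -0.15, 0.11 and -0.01 in their deviations from the group means, so the numbers were not taken as pairs. The alternatives were other normalisations, filters, priors, weights, probe set rules, a looser threshold, a replicate block and leaving out arrays.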

Additional observations from a re-analysis of the deposited data

How the results depend on the processing

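The count of the 9 genes called higher was 1, and it was 2 at an adjusted p under 0.1, with only probe sets at or above the median, with the mean of all probe sets, with an intensity trend and without CAF replicate 3 and NDF replicate 1 together, 3 with array quality weights and 0 with the replicate block. Leaving out 1 array gave 0 to 1, with 0 without NDF replicate 1, 2 or 3. For the probe sets the count of 1 became 3 at an adjusted p under 0.1, 2 with an intensity trend, 4 with array quality weights and 0 with the replicate block, with quantile normalization again and without CAF replicate 3 and NDF replicate 1 together, and 0 to 1 on leaving out 1 array. No gene or probe set of the set was called lower under any alternative. Over all genes the count of 94 became 198 at an adjusted p under 0.1, 155 with an intensity trend, 438 with array quality weights and 20 with the replicate block, and 5 to 156 on leaving out 1 array.

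Csf2rb differed by 3.31 to 4.05 over 18 alternatives and lost its call in 4, which were the replicate block (adjusted p = 0.0889) and leaving out each NDF array. Csf3 passed in 5 of 18 and Csf2rb2 in 1 of 18. The Csf3 difference stayed 1.91 with the mean of all probe sets, the filter at the median and the intensity trend. There only the variance estimate and the adjustment over other genes moved, so these are no separate support for Csf3. It stayed above the filter with a mean of 6.19 in CAF and 4.29 in NDF, where the NDF arrays had medians of 4.73 to 4.84. Csf1 turned to -0.011 without CAF replicate 3 and NDF replicate 1 together, and the cause was not tested. Csf1r, Csf2, Csf2ra, Csf3r and Il34 kept their direction and missed the threshold at gene level, that is on the 1 probe set or mean that stood for the gene, in every alternative that could be fitted to them. On single probe sets, 2 of 3 of Csf1r turned, 1419873_s_at to -0.027 with array quality weights and -0.086 without CAF replicate 3, and 1423593_a_at to -0.024 without CAF replicate 3, and each of the 4 Csf1 probe sets turned in at least 1 alternative. The filter at the median left no value for Csf2, Csf2ra and Il34, and that at the 25th percentile none for Csf2. Dim signals limit what can be read for Csf2, Csf2ra and Il34, and in NDF also for Csf3 and Csf3r.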
